A study of Mus musculus with 8 samples.

Results

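The 10 genes described here encode the NF-κB transcription factors (Nfkb1, Nfkb2, Rel, Rela and Relb), 3 cytoplasmic inhibitors that hold them (Nfkbia, Nfkbib and Nfkbie), the ubiquitin-editing inhibitor Tnfaip3 and the nuclear co-regulator Bcl3. They were chosen by symbol, and each symbol matched 1 row, which gave 10 of the 55536 genes in the count table. RNA was measured in MIN6 cells, a mouse insulinoma line used as a model of pancreatic β cells and labelled as wild type. All cells were transfected for 48 h with Lipofectamine 3000, control cells with the empty vector pcDNA 3 and the others with pGloMyc-Klf4, a plasmid for the transcription factor Klf4. Each group had 4 libraries numbered as replicates, with replicates 1 and 2 labelled batch 1 and replicates 3 and 4 labelled batch 2. Nothing in the labels says that they came from separate cultures, so p-values measure the spread between these libraries, which may be technical. The extraction text speaks of islets, while every library is labelled as MIN6. The 2 plasmid names differ in more than Klf4, so the backbone and Klf4 cannot be told apart in this design, and the share of cells that took up plasmid is not given in the sources used here.

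NF-κB factors are dimers of proteins that share a Rel homology domain, which binds DNA at κB sites. In resting cells IκB proteins, the products of Nfkbia, Nfkbib and Nfkbie, keep the dimers in the cytoplasm. Signals from tumour necrosis factor, interleukin-1 or Toll-like receptors activate a kinase complex that marks the IκBs for destruction, and the freed dimers enter the nucleus. Several of these genes, among them Nfkbia and Tnfaip3, are themselves classical NF-κB targets, so that the pathway induces its own brakes. In β cells the pathway is best known for the response to inflammatory cytokines.

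Because several members are known κB targets, and because Klf4 was the factor supplied, the promoter windows of RefSeq (build GRCm38.p6, 250 bases before to 50 after an annotated start) were searched on both strands. The κB consensus was used by name, and the second motif was GGGNGTGG, a core shared by Krüppel-like factors. The motifs do not overlap each other in these windows. Of the 10 members, 8 had a window, with 11 windows in all. Nfkb1 and Relb had none. A κB match was found in 6 of those 8 members and a GGGNGTGG match in 3 of 8 (Nfkb2, Rel and Nfkbie). Counted by window, 8 of 11 held a κB match and 4 of 11 a GGGNGTGG match, with 3 windows for Nfkb2, of which 2 overlap, and 2 for Tnfaip3. Of all 32851 windows, 8.46% held a κB match and 17.6% held GGGNGTGG. The windows of Rela and Nfkbib held neither. The κB matches of Nfkbia, Nfkbie and Rel lie outside their genes in the GENCODE M21 annotation, those of Tnfaip3 in an intron, 1 of Nfkb2 in an intron and its others in UTR exons, and that of Bcl3 in a UTR exon. The κB matches are shown because κB sites are the DNA that NF-κB dimers bind. Each line gives 28 bases with GRCm38 coordinates, 5′ to 3′ on the strand of the gene, with the match in capitals, and matches that overlap on the 2 strands are shown once:
Nfkbia, 29 bases before the start, chr12:55492658-55492685 (minus strand): gactggcttGGAAATTCCCcgcgcctga
Nfkbie, 106 bases before the start, chr17:45555585-45555612 (plus strand): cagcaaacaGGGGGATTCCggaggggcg
Tnfaip3, 125 bases before the start, chr10:19015517-19015544 (minus strand): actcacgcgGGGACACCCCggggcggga
Tnfaip3, 12 bases before the start, chr10:19015404-19015431 (minus strand): atttccatcGGAAATCCCCctgttggca
Rel, 92 bases before the start, chr11:23771043-23771070 (minus strand): gtaagcagcGGGAAATCCCcccccctcc
Nfkb2, 39 bases before its first start, chr19:46304689-46304716 (plus strand): gatcgtcacGGGAATTCCCcccctcggg
Nfkb2, 11 bases before its first start, chr19:46304717-46304744 (plus strand): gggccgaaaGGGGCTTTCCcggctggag
Nfkb2, 236 bases before its next start, chr19:46305450-46305477 (plus strand): ccgacggcaGGAATGTCCCcacaaaagc
Nfkb2, 10 bases after that start, chr19:46305696-46305723 (plus strand): ggtattttcGGGACTTTCCtaagcagca
Bcl3, 2 bases after the start, chr7:19822735-19822762 (minus strand): cggcggcagGGGAAGTCCCgctgcccgg

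The upstream stretches of 2 of the 3 inhibitor genes that rose are given whole, with the motif matches in capitals. Nfkbib also rose, but its window held no match of either kind and is not shown. A link between matches and changes was not tested. That of Nfkbia (chr12:55492648-55492897, minus strand) holds 1 κB match and no GGGNGTGG. That of Nfkbie (chr17:45555450-45555699, plus strand) holds 1 match of each kind, the κB match being the first block of capitals. A match describes letters in a window and was not tested for binding.
Nfkbia: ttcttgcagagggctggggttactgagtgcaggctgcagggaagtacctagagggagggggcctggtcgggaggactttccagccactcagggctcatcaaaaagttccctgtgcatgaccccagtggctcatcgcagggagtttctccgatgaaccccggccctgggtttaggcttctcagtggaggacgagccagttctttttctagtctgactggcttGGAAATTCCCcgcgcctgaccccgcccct
Nfkbie: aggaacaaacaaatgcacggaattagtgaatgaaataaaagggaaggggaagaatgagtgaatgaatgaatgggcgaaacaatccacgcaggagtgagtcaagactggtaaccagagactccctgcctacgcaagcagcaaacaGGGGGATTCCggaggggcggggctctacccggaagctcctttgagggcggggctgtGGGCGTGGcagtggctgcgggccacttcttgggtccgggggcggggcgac

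The libraries held 45417853 to 52731176 counts, of which the 10 members took 0.0236% to 0.0276%. Klf4 rose from 40.1 ± 3.11 to 5040 ± 567 CPM (counts made comparable for depth with TMM factors, SD, n = 4), as the labels call for, with plasmid and endogenous transcripts counted together. Marker sums and averages were scaled to total counts, without TMM factors. The β-cell markers were abundant (summed 25333 to 32147 CPM in control and 23759 to 32227 CPM in Klf4-transfected libraries), although 5 of the 10 fell in the test used below. Of 7 macrophage markers 6 averaged under 1 CPM, and their sum was 6.23 to 6.79 CPM in control and 6.11 to 7.66 CPM in Klf4-transfected libraries. Of 6 fibroblast markers 3 rose, and their sum went from 2.61 to 3.85 CPM up to 20.9 to 27.4 CPM, most of it Dcn, while Lum had no count in any library. Of 5 endothelial markers 1 rose (summed 4.15 to 4.42 CPM in control and 5.04 to 5.31 CPM with Klf4), and of 5 duct markers 3 rose (56.1 to 87.6 and 72.5 to 110.6 CPM). The part of these marker changes in the results on NF-κB genes was not tested. In such bulk libraries fewer cells of a type and less RNA per cell cannot be told apart.

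All 10 members passed the filter on low counts and were tested with edgeR's quasi-likelihood test with a term for batch, with p-values adjusted by the Benjamini-Hochberg method over 18266 genes. At an adjusted p under 0.05, 5 of 10 members changed, 4 higher (Nfkb2, Nfkbia, Nfkbib and Nfkbie) and 1 lower (Tnfaip3). The count was 4 (3 higher) with the replicate block, which pairs libraries by number, and 2 without the batch term. It was 4 without control replicate 1 or 4, 3 without control replicate 3 or Klf4-transfected replicate 1, 2 or 3, and 2 without control replicate 2 or Klf4-transfected replicate 4. Over all genes tested 36.6% changed, 21.1% higher and 15.5% lower. Of those calls 57.7% were higher, and 72.7% with scaling from abundant genes, under which the members' counts were again 4 higher and 1 lower. The median log2 fold change of the members was 0.045, against -0.014 over all genes tested. By role, all 3 IκB genes rose, 1 of 5 factor genes rose, Tnfaip3 fell, and Bcl3 did not pass the test. Of 16 alternative settings, Nfkbie and Tnfaip3 passed in 16, Nfkbia in 13, Nfkb2 in 7 and Nfkbib in 5. The changes were small. Of the 3856 genes that rose, 69.3% rose by more than Nfkbie and 89.6% by more than Nfkbia. Tnfaip3 stood differently among the 2828 genes that fell, of which 4.63% fell by more.

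**Figure D1:**
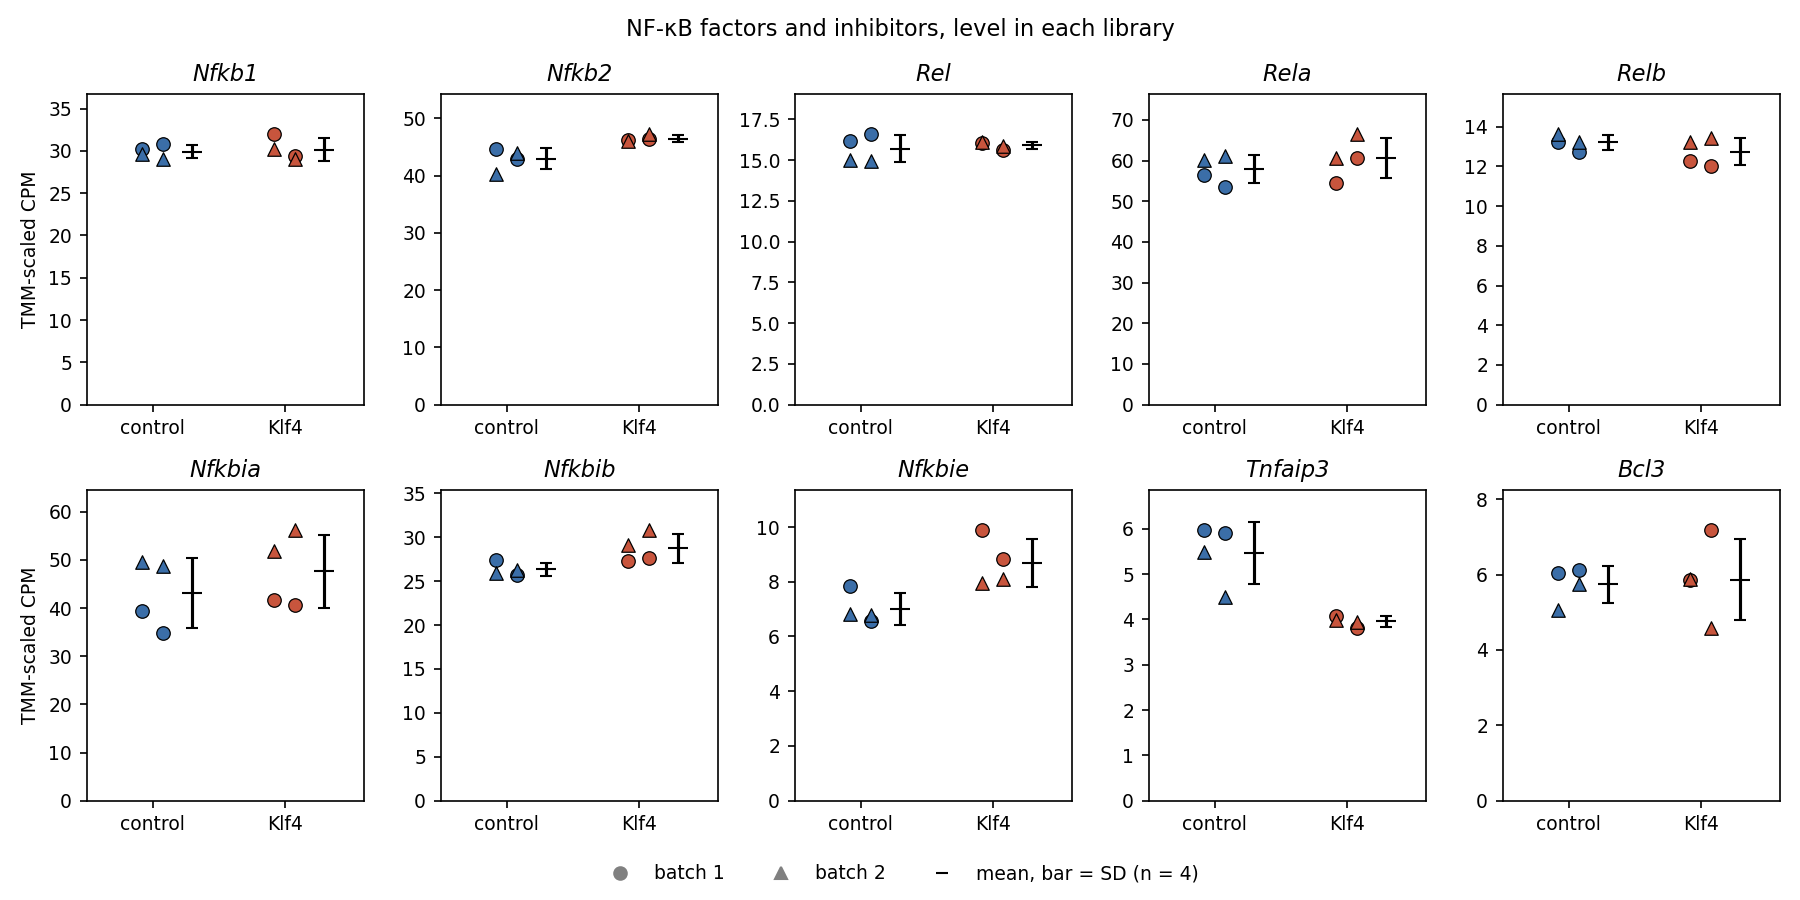
TMM-scaled CPM (vertical axis, from 0) of the 10 genes in each library, control in blue and Klf4-transfected in red, with circles for batch 1, triangles for batch 2 and a bar for the mean and SD of 4 libraries. The groups are apart for Nfkb2, Nfkbie and Tnfaip3, and Nfkbia differs more between batches than between groups.

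Of the 5 factor genes Nfkb2 passed the test, with a small rise, and the other 4 did not. Nfkb2 (ENSMUSG00000025225, chromosome 19, 46304320 to 46312385, plus strand, GRCm38) encodes p100, which is processed to p52 in the non-canonical branch. It stood at 44.6, 43.0, 40.3 and 44.0 CPM in control replicates 1 to 4 and at 46.2, 46.4, 46.0 and 47.2 CPM in Klf4-transfected replicates 1 to 4. The groups did not overlap, though the highest control and the lowest Klf4-transfected library were close. The difference was 0.11 on the log2 scale (SE 0.039, edgeR adjusted p 0.0274), a rise of 8.15% with a 95% interval of 2.21% to 14.4%. This call was lost when any single library other than control replicate 4 was left out, and without control replicate 3 the log2 fold change was 0.070 (edgeR adjusted p 0.215). The exons of Nfkb2 overlap those of 2 genes on the other strand, Psd and AC114539.1, and with no strand setting stated their reads cannot be told apart there.

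Rela (ENSMUSG00000024927, chromosome 19, 5637483 to 5648130, plus strand) encodes p65, the main activating subunit of the canonical pathway. It was at 56.5, 53.6, 60.04 and 61.2 CPM in control and at 54.4, 60.5, 60.7 and 66.5 CPM in Klf4-transfected libraries, with overlap between the groups. The log2 fold change of 0.065 (SE 0.040) did not pass the threshold (edgeR adjusted p 0.221). Its 95% interval ran from a change of -1.22% to one of 10.9%.

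Nfkb1 (ENSMUSG00000028163, chromosome 3, 135584655 to 135691547, minus strand) encodes p105, the precursor of p50. Its control libraries lay at 30.2, 30.8, 29.6 and 29.1 CPM and its Klf4-transfected libraries at 32.0, 29.4, 30.3 and 29.0 CPM. The groups overlapped within each batch. In Nfkb1 the difference was 0.012 on the log2 scale (SE 0.043, edgeR adjusted p 0.865), with an interval of -5.26% to 7.36%.

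Rel (ENSMUSG00000020275, chromosome 11, 23736847 to 23770970, minus strand), the gene of c-Rel, had 16.2, 16.6, 15.0 and 14.9 CPM in control and 16.04, 15.6, 16.1 and 15.9 CPM in Klf4-transfected libraries. Its control libraries split by batch, and the Klf4-transfected ones fell between the 2 batches' control levels. In Rel the difference was 0.021 on the log2 scale (SE 0.055, edgeR adjusted p 0.815, interval -6.26% to 9.83%).

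Relb (ENSMUSG00000002983, chromosome 7, 19606217 to 19629438, minus strand) encodes the usual partner of p52. It had 13.3, 12.7, 13.6 and 13.2 CPM in control and 12.3, 12.04, 13.3 and 13.4 CPM in Klf4-transfected libraries. Both Klf4-transfected libraries of batch 1 were below their controls, and in batch 2 the groups overlapped. In Relb the difference was -0.052 on the log2 scale (SE 0.058, edgeR adjusted p 0.536, interval -11.3% to 4.91%). For these 4 factor genes the intervals leave no room for a change of the size seen in Tnfaip3, and they do not show that the levels were equal.

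The 3 IκB genes were all higher in Klf4-transfected cells by the pooled test, and Nfkbie rose most. The call of Nfkbib was lost in 11 of 16 alternatives, the replicate block among them (adjusted p 0.0589), and that of Nfkbia in 3 of 16, among them the fit without the batch term (adjusted p 0.487). Nfkbie (ENSMUSG00000023947, chromosome 17, 45555703 to 45563169, plus strand) encodes IκBε, an inhibitor that acts with a delay after stimulation. It had 7.86, 6.57, 6.82 and 6.77 CPM in control and 9.89, 8.84, 7.95 and 8.12 CPM in Klf4-transfected libraries, on 320 to 511 counts per library. All Klf4-transfected libraries were above all control libraries. Nfkbie thus differed by 0.31 on the log2 scale (SE 0.080, edgeR adjusted p 0.00368), a rise of 24.0% with an interval of 10.5% to 39.1%. It kept its direction and passed the threshold under all 16 alternative settings, at 0.23 to 0.34 and an adjusted p of 0.00172 to 0.0371.

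Nfkbia (ENSMUSG00000021025, chromosome 12, 55489410 to 55492647, minus strand) encodes IκBα, the rapidly resynthesised inhibitor. It had 39.3, 34.9, 49.6 and 48.7 CPM in control replicates 1 to 4 and 41.7, 40.6, 51.9 and 56.2 CPM in Klf4-transfected replicates 1 to 4, so that the libraries of batch 2 were the higher ones in both groups. Within each batch both Klf4-transfected libraries were above both controls, while across batches the groups overlapped. The log2 fold change was 0.14 (SE 0.042, edgeR adjusted p 0.00951), a rise of 10.5% with an interval of 3.99% to 17.4%. The call also failed without control replicate 2 (0.094, adjusted p 0.0839) or without Klf4-transfected replicate 4 (0.12, adjusted p 0.0613).

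Nfkbib (ENSMUSG00000030595, chromosome 7, 28758251 to 28767512, minus strand) encodes IκBβ, the inhibitor least tied to feedback. It had 27.4, 25.7, 25.9 and 26.3 CPM in control and 27.3, 27.6, 29.2 and 30.8 CPM in Klf4-transfected libraries. The groups were apart in batch 2 and overlapped in batch 1. The log2 fold change was 0.13 (SE 0.047, edgeR adjusted p 0.0415), a rise of 9.05% with an interval of 1.91% to 16.7%. The call was lost when any 1 of 7 libraries was left out, control replicate 1 being the exception. Exons of Nfkbib overlap exons of Ccer2 and Sirt2 on the other strand, which leaves part of its reads uncertain.

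Tnfaip3 moved most among the 10 genes, and it moved down. Tnfaip3 (ENSMUSG00000019850, chromosome 10, 19000910 to 19015657, minus strand) encodes A20, an enzyme that edits ubiquitin chains and ends signalling upstream of the kinase complex. It had 5.97, 5.90, 5.48 and 4.50 CPM in control and 4.08, 3.80, 3.99 and 3.94 CPM in Klf4-transfected libraries, on 172 to 287 counts per library. All 4 Klf4-transfected libraries were below all controls and close together, while control replicate 4 stood nearer to them than the other controls did. The log2 fold change was -0.46 (SE 0.10, edgeR adjusted p 0.000849), a change of -27.3% with an interval of -37.0% to -15.99%. It kept this direction and passed the threshold under all 16 alternatives, at -0.55 to -0.42 and an adjusted p of 8.45e-05 to 0.00903. Over the 8 libraries, the genes whose log2 CPM most resembled that of Tnfaip3 among 12860 compared were Gmeb1 (Pearson r 0.983), Dok6 (0.982) and Pxk (0.973), which share libraries and depth with it. Their log2 fold changes were -0.16 for Gmeb1, -0.36 for Dok6 and -0.10 for Pxk, each past the threshold. Among the genes compared 19 had an r above 0.95. The difference between groups was left in these correlations, and shared regulation was not tested.

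Bcl3 (ENSMUSG00000053175, chromosome 7, 19808462 to 19822770, minus strand) encodes an IκB-like nuclear protein that works with p50 and p52 dimers. It had 6.03, 6.12, 5.05 and 5.76 CPM in control and 5.84, 7.18, 5.88 and 4.57 CPM in Klf4-transfected libraries. The highest and the lowest library were both Klf4-transfected. The log2 fold change was 0.025 (SE 0.10, edgeR adjusted p 0.882), with an interval of -11.9% to 17.5%, which leaves room for a change of either sign within it. Its exons overlap Gm16175 on the other strand.

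**Figure D2:**
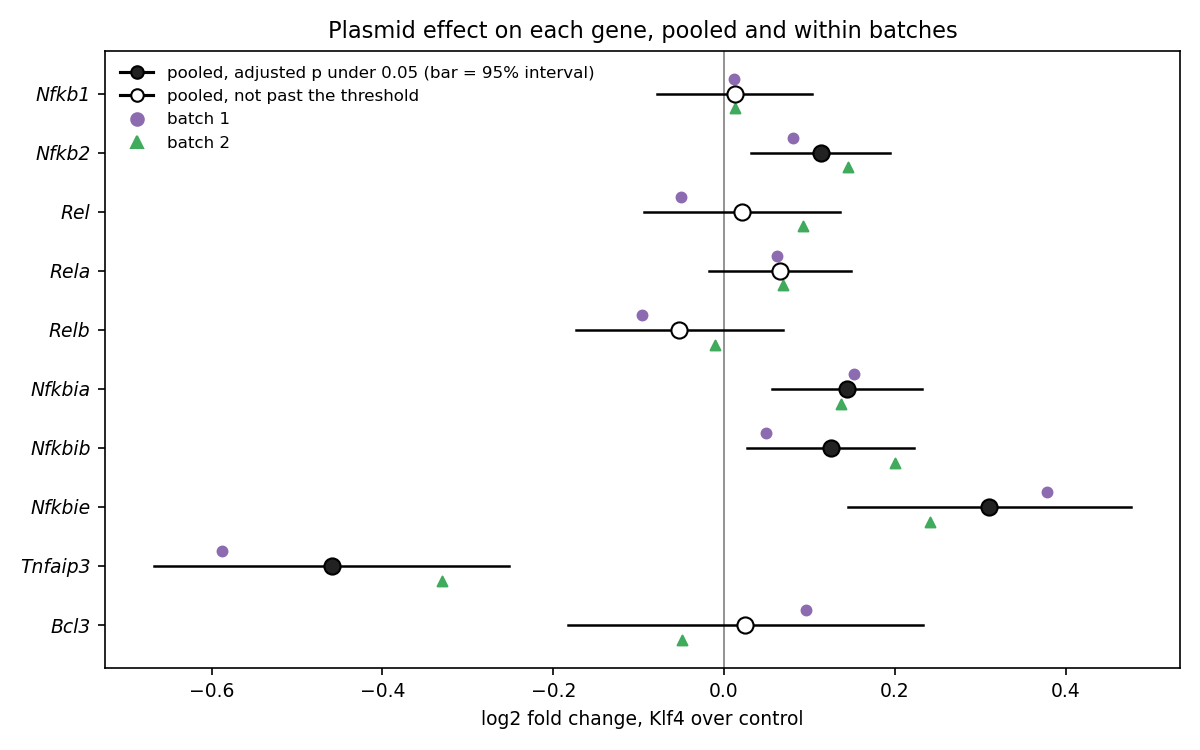
Log2 fold change of Klf4-transfected over control libraries for each gene (horizontal axis), with the pooled estimate and its 95% interval in black, filled where the adjusted p was under 0.05, and within-batch estimates in purple (batch 1) and green (batch 2). The intervals of Nfkbie and Tnfaip3 lie farthest from 0, at 10.5% to 39.1% and -37.0% to -15.99%.

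Counted over the members, the groups did not overlap for 3 of 10 (Nfkb2, Nfkbie and Tnfaip3), against 26.1% of all genes tested. Above control lay 2 of 10, against 17.2% of all genes, and below control 1 of 10, against 8.93%. Klf4-transfected libraries were beyond control on the same side in both batches for 4 of 10 (those and Nfkbia), against 39.5% of all genes. The 2 batches gave similar values for Nfkbia (0.15 and 0.14 on the log2 scale in batches 1 and 2), while Nfkbie (0.38 and 0.24) and Tnfaip3 (-0.59 and -0.33) moved more in batch 1, and Nfkb2 (0.081 and 0.14) and Nfkbib (0.049 and 0.20) more in batch 2. In the edgeR fit with an effect per batch, Nfkbie and Tnfaip3 passed in batch 1 (adjusted p 0.0102 and 0.00137). They did not pass in batch 2 (0.101 and 0.0672). Nfkb2 and Nfkbib passed in batch 2 only (0.0398 and 0.0142), and Nfkbia passed in neither (0.0622 and 0.0641). None of the 10 differences between batches passed edgeR's interaction test, where 0.766% of all genes did, and none had an unadjusted p under 0.05. The batch itself moved 2 of the 10 genes, against 25.1% of all genes. Nfkbia was higher in batch 2 by 0.40 on the log2 scale (SE 0.042, edgeR adjusted p 3.86e-07), a larger difference than with the plasmid, and Rela by 0.14 (SE 0.040, adjusted p 0.0106).

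**Figure D3:**
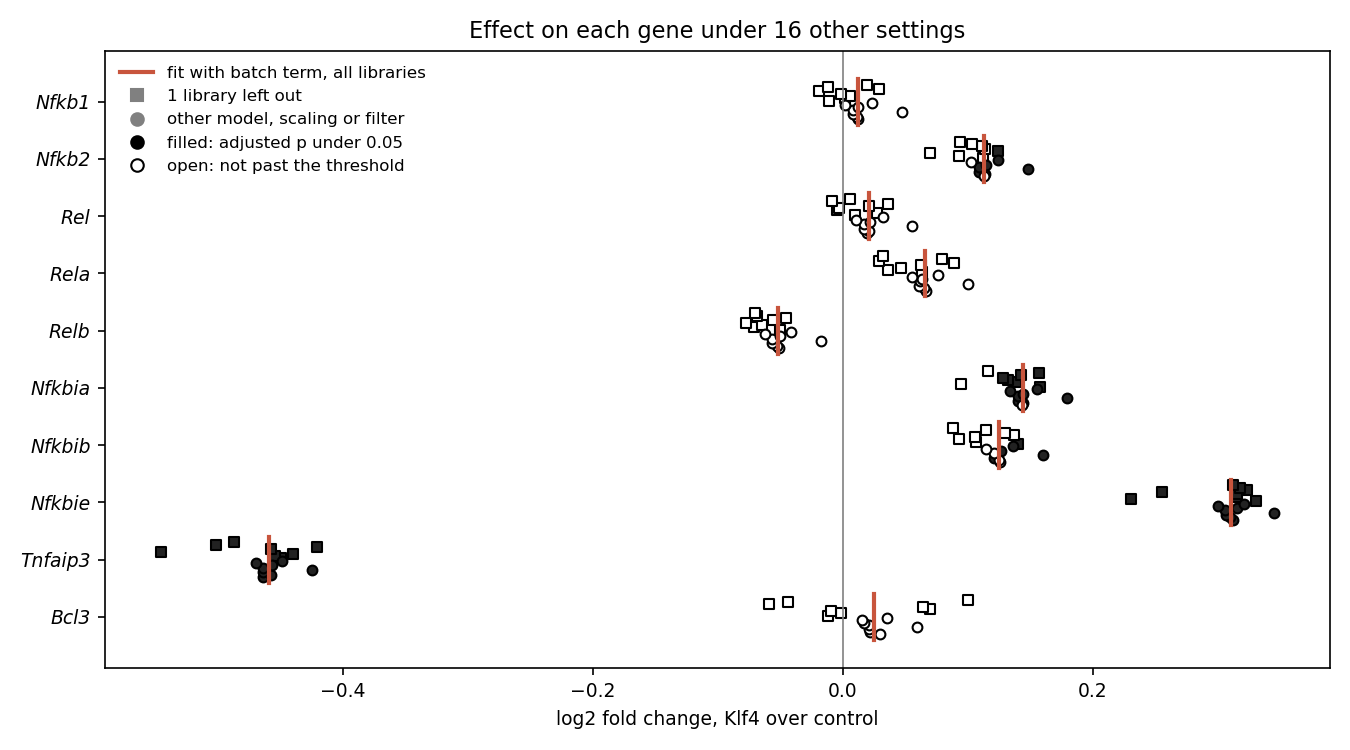
Log2 fold change of each gene (horizontal axis) in the fit used here (red line) and under 16 other settings, as squares where 1 library was left out and circles for another model, scaling or filter, filled where the adjusted p was under 0.05. All points of Nfkbie (0.23 to 0.34) and Tnfaip3 (-0.55 to -0.42) are filled, those of Nfkb2 and Nfkbib are mostly open, and the points of Nfkb1, Rel and Bcl3 fall on both sides of 0.

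Levels of different genes were compared per kilobase of exon as TMM-scaled RPKM (CPM per kilobase). In control libraries Nfkbia was highest at 26.8 ± 4.48 RPKM, followed by Rela at 18.8 ± 1.13, Nfkbib at 12.1 ± 0.348 and Nfkb2 at 9.37 ± 0.409 (SD, n = 4), and none of these 4 overlapped its neighbour in the order. Relb followed at 3.40 ± 0.0945 RPKM. Nfkb1 (2.48 ± 0.0609), Bcl3 (2.32 ± 0.196), Nfkbie (2.30 ± 0.190) and Rel (2.10 ± 0.111) came next, and each overlapped its neighbour over the libraries. Tnfaip3 was lowest, at 0.756 ± 0.0939 RPKM. In Klf4-transfected libraries the first 5 kept their order, Nfkbie (2.86 ± 0.290) came before Nfkb1 (2.50 ± 0.110) with overlap between them, and Tnfaip3 was again last at 0.547 ± 0.0164 RPKM. The order depends on the length used, since the exons of all Nfkb1 isoforms together span 12061 bases and its longest coding transcript 4117. Per length of the longest coding transcript, a choice made after the data had been seen, Nfkb1 came next after Nfkb2 in control at 7.27 ± 0.179 RPKM, above Relb at 5.98 ± 0.166, while the first 4 places and the last 2 (Rel and Tnfaip3) stayed the same, with Nfkbia and Rela now overlapping.

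**Figure D4:**
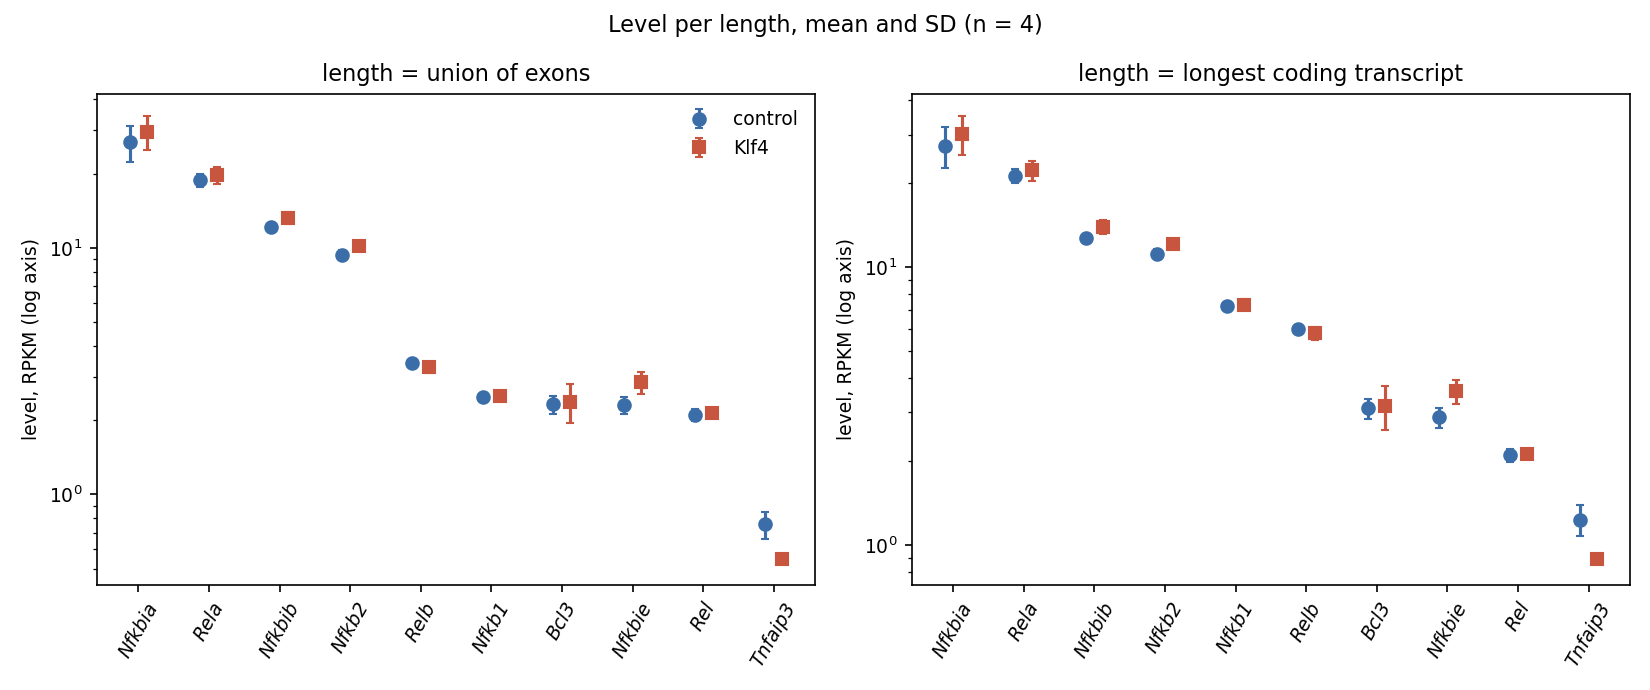
Level per length in RPKM (log axis) of the 10 genes, mean and SD of 4 control (blue) and 4 Klf4-transfected (red) libraries, with exonic length taken as the union of exons (left) or the longest coding transcript (right). Nfkbia is highest and Tnfaip3 lowest on both scales, and Nfkb1 moves above Relb on the right.

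The rest of the pathway was described with 110 genes in 6 lists, of which 80 passed the filter on low counts. Of these 80, 24 rose and 12 fell, against 21.1% and 15.5% of all genes, and their median log2 fold change was 0.025. With scaling from abundant genes 27 rose and 7 fell (median 0.059), and without the batch term 19 rose and 3 fell. The other 30 were too low to test, and a low gene that passed may have done so through the group where it was higher. With the replicate block 34 of the 80 changed. The lists were chosen with earlier results of these data known, so the shares over all genes are no independent contrast for them.

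Ligand genes were mostly low, with 6 of 12 tested. Il1b, the gene of interleukin-1β, rose by 0.39 on the log2 scale (edgeR adjusted p 0.00637), its level being 3.94 ± 0.446 CPM in control and 5.17 ± 0.786 CPM with Klf4 (SD, n = 4), and no other ligand gene passed. Il1b overlaps the antisense gene Il1bos by 25 bases. Tnf, singled out after its values were seen as the best-known inducer of the pathway, had 3, 0, 0 and 4 counts in control and 12, 6, 27 and 16 in Klf4-transfected libraries and was not tested. Lta, not tested either, had 11, 11, 5 and 9 counts in control and 3, 7, 6 and 10 in Klf4-transfected libraries. No direction is read from counts this low.

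Receptor genes changed in 10 of 12 tested cases, against 36.6% of all genes tested, and the other 6 of the 18 listed were too low to test. Of the 10, 8 were higher and 2 lower, against 21.1% and 15.5% of all genes, and the median log2 fold change of the 12 was 0.46. This list, like the others, was chosen with earlier results of these data known. Among the 8 higher genes, Cd40 and Tnfrsf1b were low, at 0.454 and 0.642 CPM in control. Cd40 had 40, 25, 8 and 14 counts in control and passed the filter only through Klf4-transfected libraries, so only a rise could be called. Tnfrsf13c, the receptor for the B-cell survival factor BAFF, had 1.04, 1.27, 0.669 and 1.28 CPM in control and 5.84, 4.90, 9.01 and 9.54 CPM in Klf4-transfected libraries (log2 fold change 2.75, SE 0.17, edgeR adjusted p 1.24e-11). Among the 5 lymphocyte markers, Cd79a also rose (log2 fold change 0.35, edgeR adjusted p 0.0228) and Ms4a1 had no count in any library, their sum being 3.23 to 3.98 CPM in control and 4.34 to 4.95 CPM with Klf4. Il1rap, the accessory chain of the interleukin-1 receptor, rose by 1.22 on the log2 scale (edgeR adjusted p 3.3e-11), while Il1r1, its ligand-binding chain, fell by 0.18 (adjusted p 1.47e-05). Tnfrsf1a, the main receptor for tumour necrosis factor, rose by 0.65 (edgeR adjusted p 2.69e-11), with 52.4 ± 2.14 CPM in control and 82.5 ± 7.12 CPM with Klf4 (SD, n = 4). Tlr5, the flagellin receptor, had a log2 fold change of -0.24 (edgeR adjusted p 0.0347), and 6 of its 16 alternatives did not pass. Il1rap overlaps Gm20319 on the other strand.

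Adaptor genes changed in 7 of 25 tested cases, 5 higher and 2 lower, with a median of 0.033. That is 28% of them, against 36.6% of all genes tested (21.1% higher and 15.5% lower). The largest change was in Card14, a scaffold of the CARD-BCL10-MALT1 complex known from keratinocytes, at 0.361, 0.637, 0.649 and 0.456 CPM in control and 6.13, 5.77, 5.67 and 5.63 CPM in Klf4-transfected libraries (log2 fold change 3.45, SE 0.16, edgeR adjusted p 2.62e-14). Its exons overlap Sgsh by 955 bases on the other strand. Card10, the related scaffold of epithelial cells, rose by 1.43 on the log2 scale (adjusted p 3.82e-14), and Ticam1, the adaptor of Tlr3, by 0.39 (adjusted p 1.37e-05). Tab2, which links ubiquitin chains to the kinase TAK1, fell by 0.15 (adjusted p 0.000124). Birc2, a ubiquitin ligase, had a log2 fold change of -0.097 and an adjusted p of 0.0491. This call was lost in 8 of 16 alternatives, among them the replicate block (adjusted p 0.0718).

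Of the 6 kinase genes 2 rose and 1 fell, against 21.1% and 15.5% of all genes tested, with a median of -0.051. Ikbkb, the catalytic subunit that phosphorylates the IκBs, rose by 0.17 on the log2 scale (edgeR adjusted p 0.000991), with all Klf4-transfected libraries above all controls. Ikbke rose by 0.27 (adjusted p 0.0011), with overlapping groups. Map3k14, the kinase of the non-canonical branch, had -0.21 (adjusted p 0.0482), a call lost with the replicate block (0.071) and in 11 other alternatives.

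Among 16 further genes tested that were listed as inhibitors, 5 rose and 3 fell, with a median of -0.0069. Of all genes tested 21.1% rose and 15.5% fell. Zc3h12a, an RNase that degrades inflammatory transcripts, rose by 1.03 on the log2 scale (edgeR adjusted p 2.09e-07). Nfkbiz, listed here though it is a nuclear relative of the co-regulator Bcl3, rose by 0.28 (adjusted p 0.000245). Tnip1, which brings A20 to its substrates, rose by 0.27 (adjusted p 1.27e-07). Tnip1 thus rose where Tnfaip3 fell, and the difference between them was not tested. Nkrf, a repressor of κB promoters, had -0.23 (adjusted p 0.000379), Nfkbil1 -0.17 (0.00741) and Rnf11, a partner of A20, -0.10 (0.0233).

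Of 30 genes known as NF-κB targets 15 were tested, of which 3 rose and 4 fell, with a median of 0.0033. The shares over all genes tested were 21.1% higher and 15.5% lower. Gadd45b, a stress-response gene, went from 18.2, 17.1, 10.8 and 11.2 CPM in control to 24.6, 25.2, 22.2 and 22.9 CPM in Klf4-transfected libraries (log2 fold change 0.75, SE 0.077, edgeR adjusted p 4.11e-08). Irf1, an interferon-response factor, rose by 0.27 (adjusted p 3.19e-06). Ptgs2, the inducible cyclooxygenase, had a log2 fold change of -0.47 (adjusted p 0.000489), Vegfc -0.35 (0.00656) and Csf1 -0.17 (0.0123). The groups overlapped for Ptgs2, whose batch difference, -0.89 for batch 2 over batch 1, was larger than that with the plasmid. Without the batch term the calls of Ptgs2 and Csf1 were lost, and that of Vegfc passed in all 16 alternatives. The targets thus moved in both directions, as the 10 factors and inhibitors did, and 15 were too low to test, among them Cxcl2 and Cxcl5, which had no count in any library.

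**Figure D5:**
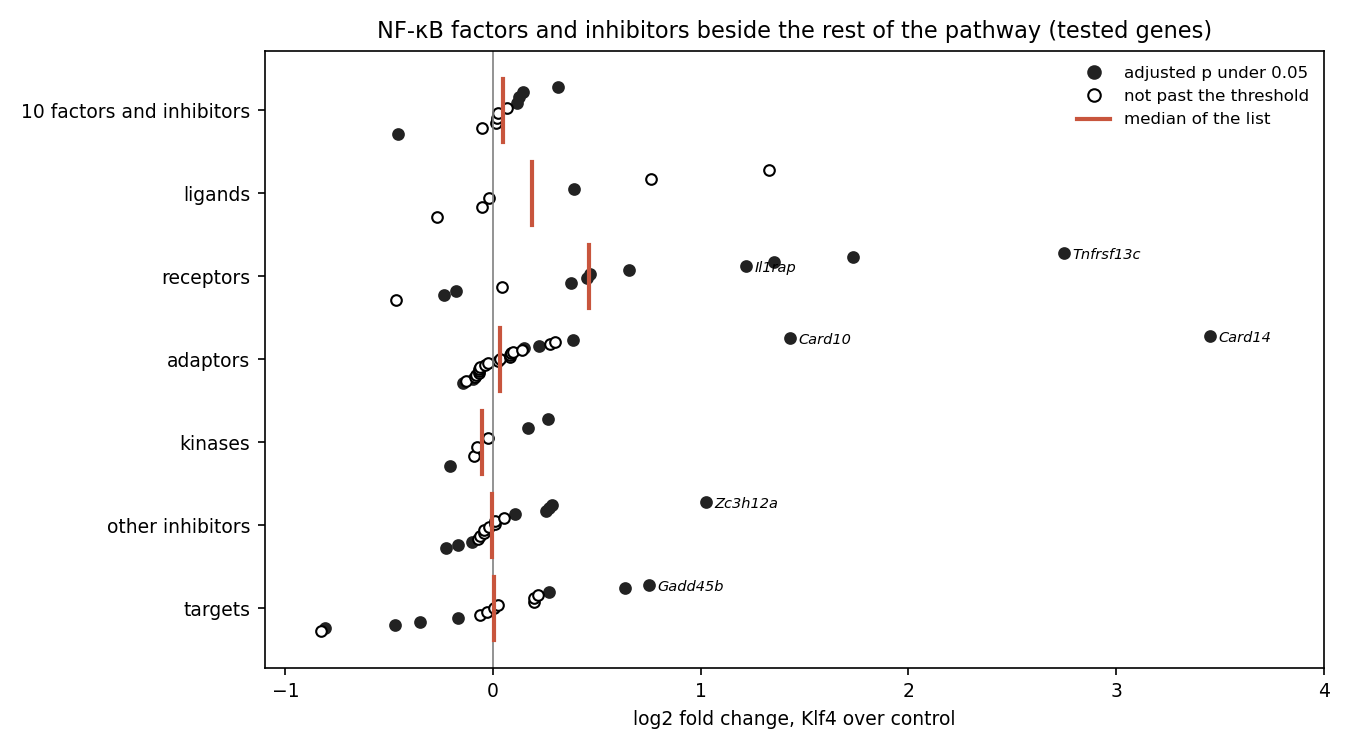
Log2 fold change (horizontal axis) of the tested genes in each list, with the 10 factors and inhibitors in the top row, filled where the adjusted p was under 0.05, and a red line at each list's median. The 10 genes lie between -0.46 and 0.31, while Card14 and Tnfrsf13c reach 3.45 and 2.75 and the receptors' median is 0.46. The lists were chosen with earlier results of these data known.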

How the data were processed

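The authors deposited 1 table of read counts per gene, whole numbers with 1 column per library, not normalised. The submitters' processing notes name FastQC, STAR, featureCounts, edgeR and mm10, with no version or role. The strand setting is not given in the sources used here. Of 55536 identifier and symbol pairs 55450 matched GENCODE M21 (GRCm38), which gave coordinates and exonic lengths.

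Counts were analysed with edgeR 4.0.16 (R 4.3.3): filterByExpr with a minimum count of 10 (18266 genes kept), TMM factors (0.996 to 1.01), and glmQLFit with batch and plasmid. CPM and RPKM were computed here with these factors, except marker sums and averages, which were scaled to total counts only. Same-numbered libraries of the 2 groups, numbered in the titles, deviated together (r 0.46 to 0.61 for the 4 pairs over 10482 genes), as did differently numbered libraries within a batch (0.46 to 0.57). Every pair passed 0.1, but the deviations were taken from group means and still held the batch difference. They therefore do not show that libraries were paired by number, and the replicate block was kept as an alternative. Alternatives were no batch term, the replicate block, DESeq2 size factors, scaling from abundant genes (mean log2 CPM from 6 up), the DESeq2 1.42.0 Wald test, limma-voom (limma 3.58.1), no filter, a filter at 1 CPM, a threshold of 0.01 and leaving out each library.

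The members and lists were chosen with earlier results of these data known. Named pathway genes were, per list, the up to 3 highest and 3 lowest log2 fold changes past the threshold whose mean log2 CPM reached 1, and for Tnfaip3 the 3 genes most correlated with it. No 2 libraries of a group agreed within sampling noise. Markers not given in the report were those of acinar cells (summed 1.42 to 3.90 CPM in control and 1.33 to 3.02 CPM with Klf4, none changed), α cells (586.4 to 711.2 and 603.0 to 701.9 CPM, 2 of 5 higher) and δ cells (0 to 0.103 and 0.0385 to 0.209 CPM, none tested).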

Additional observations from a re-analysis of the deposited data

Results flagged for a closer look

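By edgeR's interaction test 2 of the named genes responded differently in the 2 batches. For Gadd45b the log2 fold change was 0.50 in batch 1 and 1.03 in batch 2, a difference of 0.53 (adjusted p 0.0057). For Klf4 itself it was 6.79 and 7.16, a difference of 0.37 (adjusted p 0.0057). In 72 checks for a library far from the other 3 of its group, over the 10 members, the named pathway genes and Klf4, none was found. Chance gives about 3.6 for 4 like libraries, but each group held 2 libraries per batch. Where batches differ, a single library can hardly stand out, so the check does not show that none strayed.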

How the results depend on the processing

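Over all genes 6684 changed, 4116 without the batch term and 5889 to 7074 with 1 library left out. With scaling from abundant genes 72.7% of calls were higher, against 57.7% with TMM. Of the members 5 changed, 2 without the batch term, 3 with no filter, 3 at the threshold of 0.01 and 2 to 4 with 1 library left out. Of the pathway genes 36 changed, 22 without the batch term. Without the batch term the calls of Nfkb2 (0.11, adjusted p 0.0864), Nfkbia (0.14) and Nfkbib (0.13, adjusted p 0.115) were lost, with no filter those of Nfkb2 (0.10) and Nfkbib (0.11), and in the DESeq2 Wald test that of Nfkbib (0.12). The replicate block ended the call of Nfkbib (0.12) and of no other member, and of 25 named pathway genes those of Birc2 (-0.096) and Map3k14 (-0.21). With 1 library left out the log2 fold change was 0.070 to 0.12 for Nfkb2, 0.094 to 0.16 for Nfkbia and 0.088 to 0.14 for Nfkbib. It changed sign in some of these fits for Nfkb1 (-0.019 to 0.029), Rel (-0.0091 to 0.036) and Bcl3 (-0.059 to 0.10), none of which passed the threshold in any setting. The cause was not tested. Of the 25 named pathway genes 16 kept direction and call in all alternatives and none reversed. The other 9 all lost the call without the batch term. They were Tlr5, Il1r1, Birc2, Ikbke, Map3k14, Nfkbil1, Rnf11, Ptgs2 and Csf1. No member differed between batches under the other scalings and filters.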
